A study of Homo sapiens with 4 samples.

Results

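Of the 19749 gene rows in the authors' deposited table, 88 belonged to the nuclear-encoded respiratory chain and ATP synthase. They were chosen by gene symbol alone, as those starting with NDUF, UQCR, ATP5 or COX followed by a digit from 4 to 8, without symbols holding a hyphen or ending as pseudogenes. By prefix, 46 were counted with complex I, 9 with complex III, 15 with complex IV and 18 with complex V. Of these 88 genes, 76 encode structural subunits or their tissue isoforms and 12 do not, among them the 7 complex I assembly factors named NDUFAF. RNA came from U87 cells, an established human glioblastoma line grown in serum-containing medium, in a single comparison of YZ129 with DMSO. YZ129 is a small molecule that the series title links to the HSP90, calcineurin and NFAT pathway. Cells given 5 µM YZ129 for 24 h gave 2 libraries, and control cells given the vehicle DMSO gave 2. U87 is a single line, so nothing here extends to other glioblastoma cells.

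The respiratory chain passes electrons from NADH and succinate to oxygen and pumps protons across the inner mitochondrial membrane. Complex I oxidises NADH, complex III passes electrons from ubiquinol to cytochrome c, complex IV reduces oxygen, and complex V, the ATP synthase, uses the proton gradient to make ATP. Most subunits are encoded in the nucleus, and promoters of many of them are known to bind the nuclear respiratory factor NRF1 and the ETS factor GABP. Glioma cells are known for combining strong glycolysis with a working respiratory chain.

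Each gene's value is the log2 fold change computed by the authors, ± its SE, taken here as YZ129 over DMSO, so a negative value means lower with YZ129. The table does not state its numerator, and the comparison's name puts DMSO first. The reading rests on 20 cytosolic heat shock genes, of which 12 were positive with an adjusted p under 0.05, 0 were negative with such a p, and 8 missed that threshold in the authors' deposited table. Under the opposite reading every direction below turns round. No values per library were available, so the spread is given by the deposited SE. The mean level of a gene is the authors' average of normalized read counts. From its lowest values 8 libraries are inferred to have entered that average, although only 4 are described. Which other libraries these were is unknown, and the log2 fold changes, SEs and p-values may also draw on them rather than on 2 against 2 libraries alone. Of 10 astroglial and glioma markers, VIM and CD44, which many mesenchymal cells also express, had mean levels of 298885 and 134994, CHI3L1 4151, SLC1A3 1891 and NES 909. The more lineage-bound OLIG2 had 96.2, GFAP 52.2, FABP7 15.5, S100B 1.12 and SOX2 0.851, so several of them were at or near 0. All 3 epithelial markers lay between 0.588 and 18.1 (EPCAM the highest), and of the neuronal markers MAP2 had 1627, SYT1 408 and RBFOX3 3.90. Of the blood markers PTPRC had 2.28 and CD3E 0.426.

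Most transcripts of the respiratory chain had a small negative log2 fold change with YZ129, and all but UQCRC1 missed the threshold. The authors' deposited table tested 84 of the 88 members, of which 1 fell (UQCRC1, a core subunit of complex III), 0 rose and 83 did not pass an adjusted p of 0.05. Over all 14812 tested genes 12.9% passed, 7.64% of them lower and 5.24% higher as shares of all tested genes. Of the 84 members, 76 had a log2 fold change below 0, against 56.0% of all tested genes. A mean level of 1000 was reached by 74 members and by 7377 tested genes in all, called the well-expressed genes from here on, of which 67.0% were below 0. The median log2 fold change was -0.20 over the members and -0.22 over their 72 tested subunits, beside -0.05 over all tested genes and -0.11 over the well-expressed genes. Relative to the well-expressed genes the median of the members was -0.09. At an unadjusted p of 0.05, 9 members were lower and 1 was higher, where the shares over all tested genes were 14.5% and 10.5%. Of the well-expressed genes 13.9% passed, with 10.1% lower and 3.82% higher, and at an unadjusted p of 0.05 the shares were 19.2% lower and 7.08% higher. The count of members called is thus below the background share, and no test of the members as a list was made. In bulk RNA, fewer cells of a kind and less RNA per cell cannot be told apart.

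**Figure D1:**
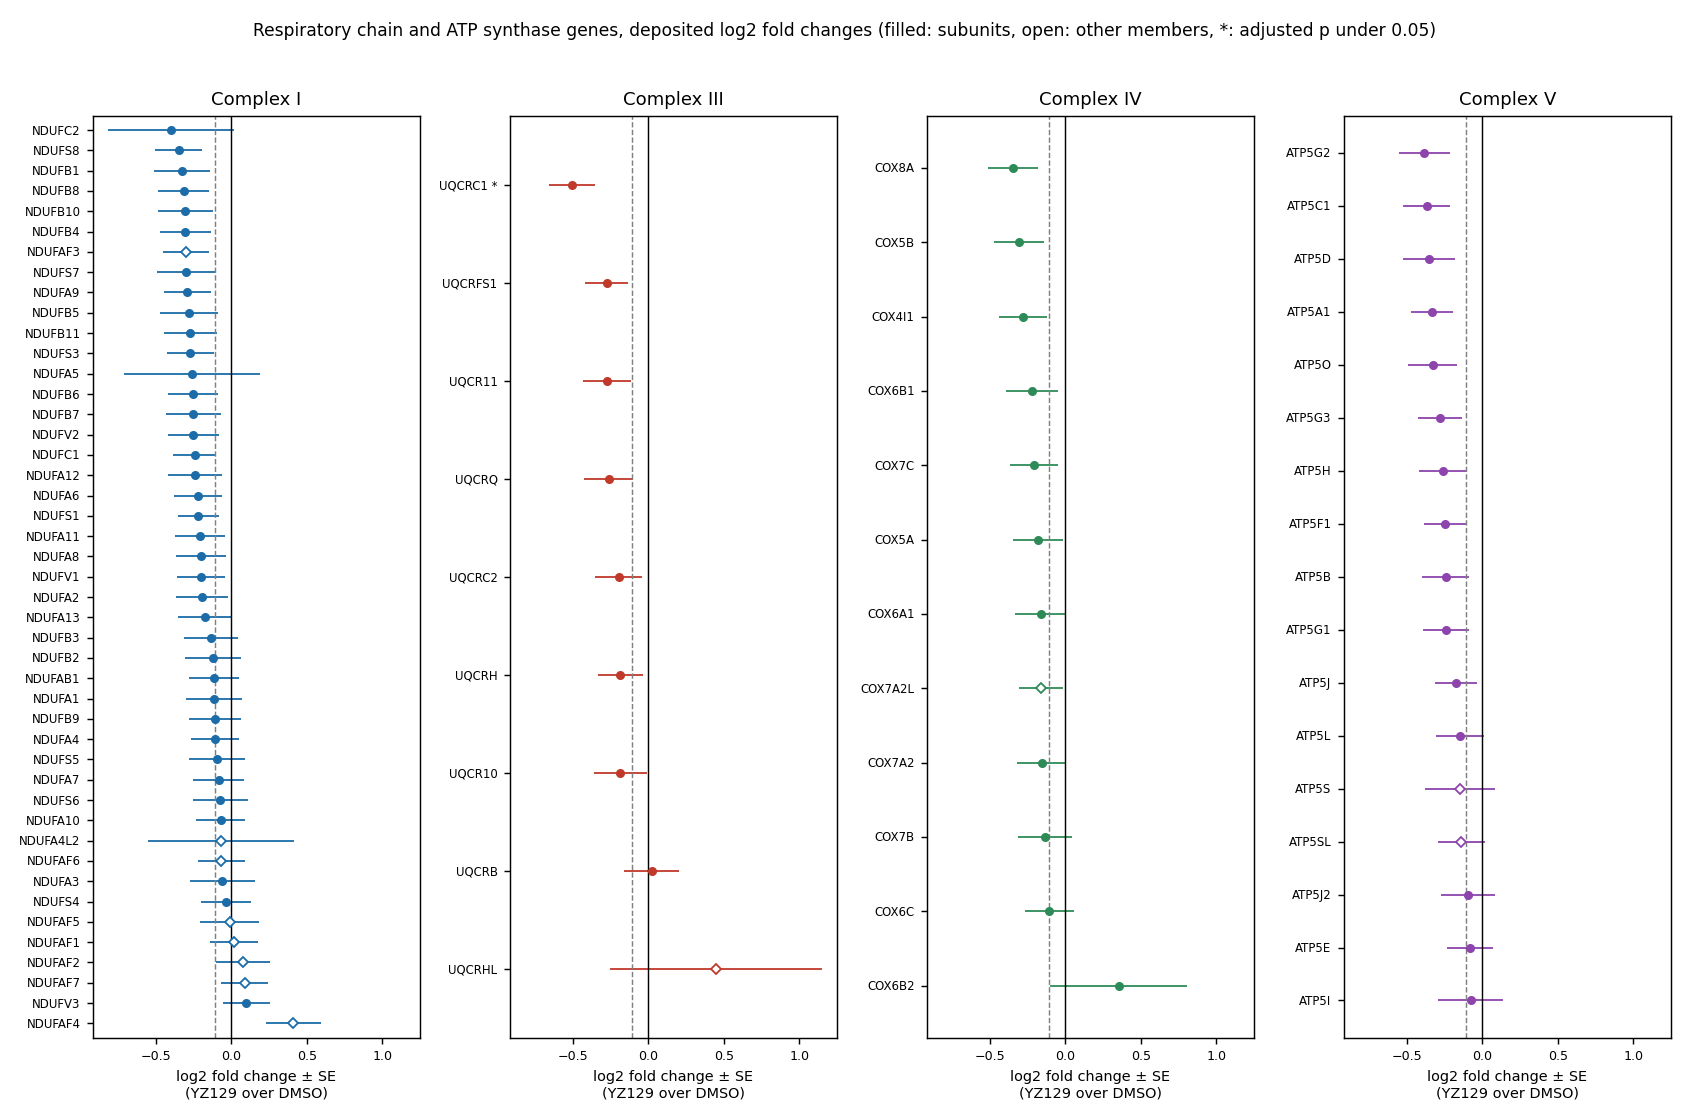
Deposited log2 fold change (x axis, YZ129 over DMSO) with its SE as a bar for the tested members that are reported here, in panels for complexes I, III, IV and V, ordered by value. Filled circles are subunits, open diamonds other members, the asterisk marks UQCRC1, and the dashed line is the median of -0.11 over well-expressed genes; nearly all points lie left of 0 and within 0.51 of it.

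The deposited errors set what could be seen. The median SE of the tested members was 0.17, and the log2 fold changes of the subunits had an SD of 0.12 among themselves, which is smaller than that SE. The subunits were therefore not told apart from each other by their own errors. From the SE, 95% normal intervals left out a 2-fold change in either direction for 79 of 84 members, a 1.5-fold higher level for 79 and a 1.5-fold lower level for 56. For comparison, 2058 well-expressed genes had an SE between 0.16 and 0.18, the middle part of the members' range; 257 of them passed, the smallest at 0.43 in size, and the largest that did not pass was 0.47. Genes are not independent of each other within a library, so the number of members below 0 carries no test.

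The promoters of the lowest member of each complex that has an entry in RefSeq are shown here, to set the members the results turn on side by side, with that of NDUFAF4, the highest tested member of complex I. NDUFC2, the lowest of complex I, had none and NDUFS8 stands in for it. Each line gives the 250 bases before the most upstream annotated start, 5′ to 3′ on the gene's strand, from RefSeq on GRCh38.p14: chr3:48609647-48609896 (minus strand), chr11:68030431-68030680 (plus strand), chr11:63974370-63974619 (plus strand), chr12:53676331-53676580 (minus strand) and chr6:96897892-96898141 (minus strand). Capitals mark matches on either strand to 4 short motifs: TGCGCANGC for NRF1, CCGGAAG for GABP, ATGGCGG for YY1 and ACGTG for the hypoxia-inducible factors. The letters for NRF1 and YY1 were shortened after longer versions had matched few windows. The motifs did not overlap in the windows shown.
UQCRC1: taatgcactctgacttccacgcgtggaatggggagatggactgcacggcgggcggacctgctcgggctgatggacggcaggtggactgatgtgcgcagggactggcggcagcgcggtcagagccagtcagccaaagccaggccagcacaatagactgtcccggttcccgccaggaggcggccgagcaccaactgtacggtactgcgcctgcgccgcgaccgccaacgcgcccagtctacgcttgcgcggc
NDUFS8: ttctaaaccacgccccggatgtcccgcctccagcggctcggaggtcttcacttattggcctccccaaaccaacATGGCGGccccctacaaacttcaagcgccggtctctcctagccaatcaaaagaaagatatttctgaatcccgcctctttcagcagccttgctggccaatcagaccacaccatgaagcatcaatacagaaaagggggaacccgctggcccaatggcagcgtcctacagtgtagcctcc
COX8A: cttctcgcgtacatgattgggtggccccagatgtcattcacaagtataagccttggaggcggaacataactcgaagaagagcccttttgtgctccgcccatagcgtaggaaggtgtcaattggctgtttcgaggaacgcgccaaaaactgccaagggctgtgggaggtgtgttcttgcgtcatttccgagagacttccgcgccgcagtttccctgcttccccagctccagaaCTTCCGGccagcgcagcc
ATP5G2: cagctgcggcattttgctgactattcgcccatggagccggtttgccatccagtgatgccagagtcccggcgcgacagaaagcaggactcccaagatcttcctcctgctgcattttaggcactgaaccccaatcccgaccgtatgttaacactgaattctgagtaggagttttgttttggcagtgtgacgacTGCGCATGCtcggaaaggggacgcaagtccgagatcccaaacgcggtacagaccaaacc
NDUFAF4: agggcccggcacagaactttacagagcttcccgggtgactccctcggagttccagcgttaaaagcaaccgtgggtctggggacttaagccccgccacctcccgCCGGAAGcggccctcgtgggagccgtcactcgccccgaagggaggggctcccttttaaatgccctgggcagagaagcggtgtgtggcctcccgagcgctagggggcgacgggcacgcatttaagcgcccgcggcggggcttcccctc

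The window of UQCRC1 held no match to any of the 4 motifs, while those of the others held 1 each: YY1 in NDUFS8, GABP in COX8A and NDUFAF4, and NRF1 in ATP5G2, now named ATP5MC2. Promoter entries were matched for 71 of the 88 members. The NRF1 letters were in 12 of these 71 windows (16.9%), against 3.99% of all 27305 promoters. The GABP letters were in 15 (21.1%), against 8.78% of all promoters, and the YY1 letters in 5 (7.04%), against 2.82%. The hypoxia-factor letters were in 15 (21.1%), against 18.6% of all promoters. By complex, the GABP letters were in 6 of 40 windows of complex I, 3 of 7 of complex III, 4 of 12 of complex IV and 2 of 12 of complex V. The NRF1 letters were in 7 of the 40 windows of complex I, 0 of 7 of complex III, 3 of 12 of complex IV and 2 of 12 of complex V. The 27305 promoters were not matched to the members by expression or gene type, and the differences in share were not tested. A match describes letters in a window and not a bound site.

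Complex III held the only member that passed, 1 of its 9 tested genes, where 12.9% of all tested genes passed. UQCRC1, a core protein on the matrix side of the complex, fell 1.42-fold (-0.51 ± 0.15, adjusted p = 0.011, mean level 7404) in the authors' deposited table. The call depends on the scale, since relative to the median of the well-expressed genes the value was -0.40 with an adjusted p of 0.063, recomputed from the authors' deposited table. Its partner core protein UQCRC2 had -0.20 ± 0.16 and the Rieske iron-sulphur protein UQCRFS1 had -0.28 ± 0.14 in the authors' deposited table. The small subunits UQCRQ (-0.27 ± 0.17), UQCR11 (-0.27 ± 0.16), UQCRH (-0.19 ± 0.15) and UQCR10 (-0.19 ± 0.18) lay in the same range of the authors' deposited table. UQCRB, a small matrix-side subunit at the ubiquinone site, was the only one of the 8 subunits above 0, at 0.02 ± 0.18 in the authors' deposited table. UQCRHL, a retrocopy of UQCRH with a mean level of 10.7, had 0.45 ± 0.70 in the authors' deposited table, and its reads may be shared with UQCRH. The 8 subunits had a median of -0.23, and 7 of them were below 0.

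In complex V all 17 tested genes were below 0, but relative to the well-expressed genes 14 were, and ATP5I stood at 0.031. Of the 17 genes 0 passed the authors' DESeq2-type test, where 12.9% of all tested genes did. At an unadjusted p of 0.05, 5 were lower, where 14.5% of all tested and 19.2% of the well-expressed genes were. These 5 were picked out once their values were known. They were the rotor subunit gamma ATP5C1 (-0.37 ± 0.15), ATP5G2 (-0.39 ± 0.17), the alpha subunit ATP5A1 (-0.33 ± 0.14), the delta subunit ATP5D (-0.35 ± 0.17) and ATP5O (-0.33 ± 0.16), the last being the OSCP subunit that joins head and stalk, in the authors' deposited table. Their adjusted p-values in the authors' deposited table ran from 0.095 for ATP5C1 to 0.18 for ATP5O. The catalytic beta subunit ATP5B, with the highest mean level of all members at 31181, had -0.24 ± 0.15 in the authors' deposited table. ATP5E, the epsilon subunit of the same head, had -0.08 ± 0.15 in the authors' deposited table.

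The 5 genes of the F1 head had a median of -0.33, the 3 genes of the c ring -0.28 and the 7 tested genes of the stalk and membrane part -0.17. The head alone ranged from -0.37 to -0.08, and differences between the parts were not tested. The 3 c-ring genes encode the same mature protein behind different targeting sequences, and ATP5G1 (-0.24 ± 0.15), ATP5G2 and ATP5G3 (-0.28 ± 0.15) differed by less than their errors in the authors' deposited table. ATP5I, a small membrane subunit, was the highest of the complex at -0.08 ± 0.21 in the authors' deposited table. ATP5S and ATP5SL, which carry the prefix without being subunits, had -0.15 ± 0.23 and -0.14 ± 0.16 in the authors' deposited table. ATP5L2, a copy of the membrane subunit gene ATP5L, had a mean level of 0.697 and no adjusted p. The 15 tested subunits had a median of -0.25.

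Of the 46 tested genes of complex I 0 passed the authors' DESeq2-type test, where 12.9% of all tested genes did. At an unadjusted p of 0.05, 2 were lower and 1 was higher, where the shares over all tested genes were 14.5% and 10.5%. Of 38 subunits 37 were below 0, with a median of -0.21. Relative to the well-expressed genes the median over the 46 was -0.09 and 31 were below 0. The nuclear-encoded core subunits form the catalytic arm with its flavin and iron-sulphur clusters. The quinone-side subunits NDUFS8 (-0.35 ± 0.16, adjusted p = 0.12) and NDUFS7 (-0.30 ± 0.19) were below 0 in the authors' deposited table. The NADH-side subunits NDUFV1 (-0.20 ± 0.16), NDUFV2 (-0.25 ± 0.17) and NDUFS1 (-0.22 ± 0.13), and NDUFS3 (-0.27 ± 0.15), were below 0 as well in the authors' deposited table. The 7 core subunits had an SD of 0.06 among themselves, below their median SE of 0.16, so the sides were not told apart.

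Among accessory subunits of complex I, the 14 genes named NDUFA or NDUFAB had a median of -0.19 and a range from -0.29 to -0.06. The 11 named NDUFB had a median of -0.27 and a range from -0.33 to -0.11. The difference between these overlapping ranges was not tested. NDUFC2, the lowest value of the complex, had -0.40 with an SE of 0.42 in the authors' deposited table, so its interval from -1.22 to 0.42 is wide. NDUFV3, an accessory subunit of the NADH module, was the only subunit of complex I above 0, at 0.10 ± 0.16 in the authors' deposited table. NDUFA4, which was later placed in complex IV, had -0.11 ± 0.16 in the authors' deposited table. Its paralog NDUFA4L2, known as a hypoxia-induced gene, had a mean level of 53.9 and -0.07 ± 0.49 in the authors' deposited table. Relative to the well-expressed genes NDUFA4 stood at 0.0012 and NDUFA4L2 at 0.042.

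Assembly factors, which help build complex I without staying in it, had a median of 0.02 over the 7 NDUFAF genes, with 3 below 0. NDUFAF4 had 0.41 ± 0.18 (adjusted p = 0.12), the highest value among the complex I genes, and its partner in assembly NDUFAF3 had -0.30 ± 0.15 (adjusted p = 0.20) in the authors' deposited table. Relative to the well-expressed genes, NDUFAF4 stood at 0.52 with an adjusted p of 0.034, and NDUFAF4 has 4 named pseudogenes with which reads may be shared. The other 5, NDUFAF1, NDUFAF2, NDUFAF5, NDUFAF6 and NDUFAF7, lay between -0.07 and 0.09 in the authors' deposited table. Assembly factors of complex I outside the NDUFAF names, such as ECSIT and ACAD9, had a median of -0.21 with 7 of 7 below 0. The difference between subunits and assembly factors was not tested.

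Complex IV had the median closest to 0 among the complexes, at -0.17 over 12 tested genes and -0.18 over its 11 tested subunits. Over all their tested genes, complexes I and III had -0.20 each and complex V -0.24. The median SE in complex IV was 0.16, and the complexes were not tested against each other. By the authors' DESeq2-type test 0 of the 12 genes of complex IV passed, where 12.9% of all tested genes did. At an unadjusted p of 0.05, where 14.5% of all tested genes were lower, 1 was lower. It was COX8A (-0.35 ± 0.16, adjusted p = 0.15), the ubiquitous form of the smallest subunit. COX5B (-0.31 ± 0.17) and COX4I1 (-0.28 ± 0.16), the ubiquitous form of the regulatory subunit, followed in the authors' deposited table. COX6B1 (-0.22 ± 0.17), COX7C (-0.21 ± 0.16), COX5A (-0.18 ± 0.17), COX6A1 (-0.16 ± 0.17), COX7A2 (-0.16 ± 0.16), COX7B (-0.13 ± 0.18) and COX6C (-0.11 ± 0.16) complete the ubiquitous set in the authors' deposited table. COX7A2L, a factor for supercomplexes of III and IV, had -0.16 ± 0.14 in the authors' deposited table.

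Tissue isoforms of complex IV were barely present. COX4I2, known as the lung and hypoxia form, had a mean level of 0.906, the heart and muscle form COX7A1 7.63 and the testis form COX8C 0.568, and none of these 3 had an adjusted p. COX6B2, the testis form of COX6B1, had a mean level of 31.9 and 0.35 ± 0.45 in the authors' deposited table. COX6A2 and COX7B2 are not in the rows used here. Per kilobase of transcript, tested subunits had median levels of 2606 for complex I, 4421 for complex III, 7260 for complex IV and 6368 for complex V, on the scale of the authors' mean level. The lengths are medians over coding transcripts of GENCODE v29, which may differ from the authors' annotation. These are levels over all 8 inferred libraries and say nothing of the treatment.

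**Figure D2:**
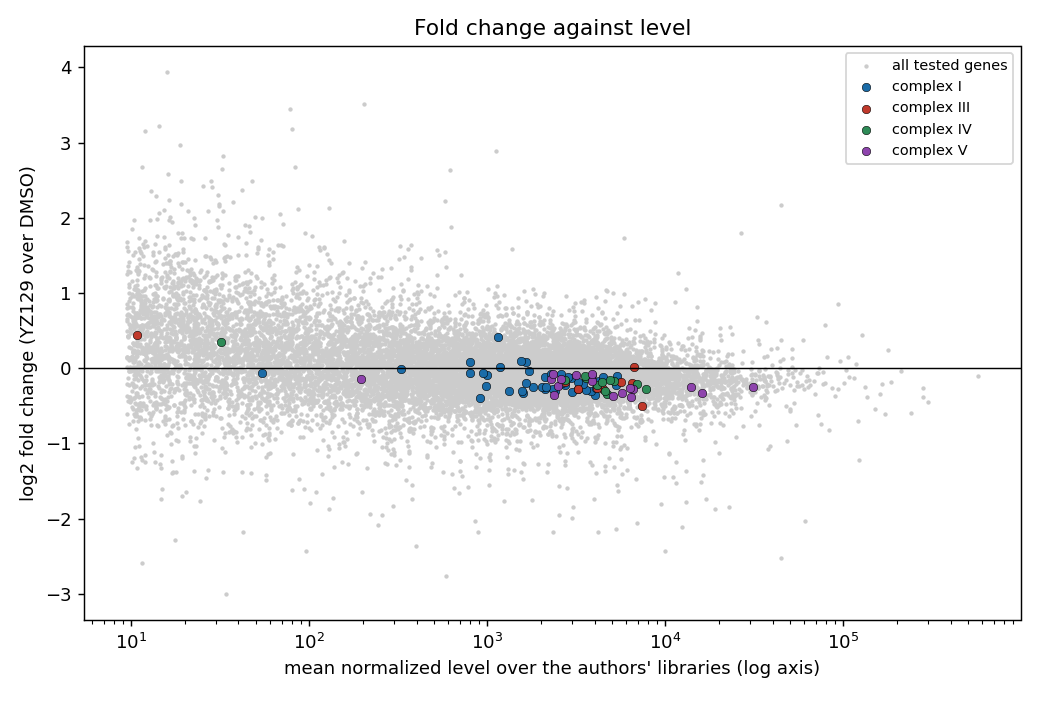
Deposited log2 fold change (y axis, YZ129 over DMSO) against mean normalized level (x axis, log scale) for all 14812 tested genes in grey and the 84 tested members in colour by complex. Most members lie above a level of 1000, where the grey cloud itself is centred at -0.11, and the 74 members of that level at -0.21.

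Genes of respiration outside the symbol rule gave 4 calls among 61, with 2 lower and 2 higher. Over all tested genes 12.9% were called, 7.64% lower and 5.24% higher. SDHA, the flavoprotein of complex II, which links the citric acid cycle to the chain, fell (-0.58 ± 0.17, adjusted p = 0.0071) in the authors' deposited table. The other complex II genes SDHB (-0.08 ± 0.15), SDHC (-0.31 ± 0.13) and SDHD (-0.24 ± 0.21) missed the threshold in the authors' deposited table. CYC1, the cytochrome c1 of complex III that the symbol rule misses, had -0.41 ± 0.16 (adjusted p = 0.075), and the electron carrier CYCS had -0.01 ± 0.45 in the authors' deposited table. Among 24 assembly factors of complex IV the median was -0.22, 19 were below 0 and 1 rose, SELRC1, now COA7, a haem-binding factor (0.53 ± 0.17, adjusted p = 0.017), in the authors' deposited table. Assembly factors of complex III had 0 of 6 past the authors' DESeq2-type test, 0 at an unadjusted p of 0.05 and a median of -0.05. Partners and assembly factors of complex V had 0 of 6 past the same DESeq2-type test, 0 at an unadjusted p of 0.05 and a median of -0.12. At that unadjusted p, 14.5% of all tested genes were lower and 10.5% higher.

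Of 12 regulators of respiratory gene expression 1 rose and 1 fell, where 5.24% of all tested genes rose and 7.64% fell. PPARGC1A, the coactivator known to drive mitochondrial biogenesis, rose 2.11-fold (1.08 ± 0.27, adjusted p = 0.0010) at a low mean level of 149 in the authors' deposited table. TFB1M, which methylates mitochondrial ribosomal RNA, fell (-0.45 ± 0.16, adjusted p = 0.043) in the authors' deposited table. It missed the threshold relative to the median of all tested genes (adjusted p = 0.084). The other 10 of 12 did not pass, including NRF1 (-0.06 ± 0.15), GABPA (-0.03 ± 0.45), the coactivators PPARGC1B (0.30 ± 0.19) and PPRC1 (0.24 ± 0.15), and the mitochondrial transcription factor TFAM (-0.03 ± 0.21), in the authors' deposited table. TFB2M (0.36 ± 0.16), the receptor ESRRA (0.33 ± 0.14) and the mitochondrial RNA polymerase POLRMT (-0.35 ± 0.16) stood farther from 0 in the authors' deposited table. The median over the 12 was -0.0048. The subunits encoded in mitochondrial DNA were not analysed here.

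Other gene groups of energy supply are given for scale, where 7.64% of all tested genes fell and 5.24% rose. Of 13 enzymes of the tricarboxylic acid cycle 13 were below 0 with a median of -0.21, and 1 fell, SUCLG2, a subunit of succinyl-CoA ligase (-0.51 ± 0.16, adjusted p = 0.020, named after its value was seen), in the authors' deposited table. Of 79 mitochondrial ribosomal protein genes 1 fell and 0 rose, with a median of -0.07 and 55 below 0. At an unadjusted p of 0.05 in the same DESeq2-type test, 6 of those 79 were lower and 5 higher. The shares over all tested genes were 14.5% and 10.5%. Of 16 glycolytic enzymes 14 fell and 0 rose, with a median of -0.75, and that direction was known from earlier results of these data. At an unadjusted p of 0.05 the glycolytic counts were 14 lower and 0 higher. The groups were not tested against each other.

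**Figure D3:**
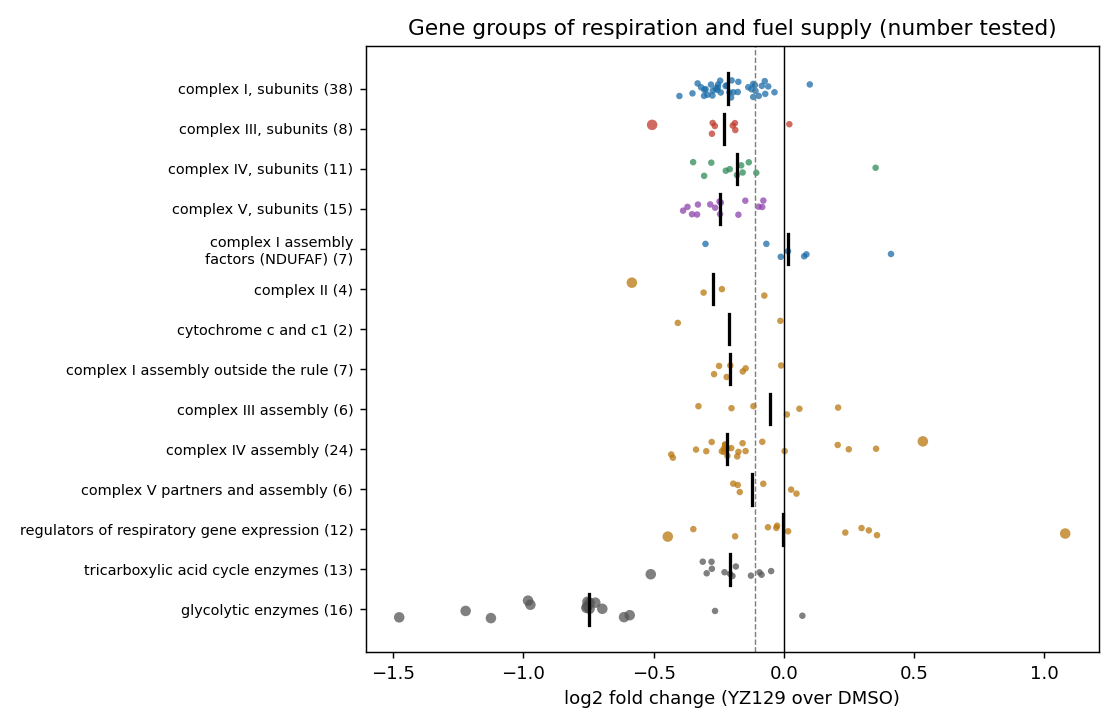
Deposited log2 fold change (x axis, YZ129 over DMSO) of each tested gene by group, with the number tested in brackets, large points passing an adjusted p of 0.05, black bars the medians and the dashed line the median of -0.11 over well-expressed genes. Medians of the 4 sets of subunits lie between -0.25 and -0.18, that of the NDUFAF factors at 0.02 and that of the glycolytic enzymes at -0.75.

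A few of these genes carried errors far larger than their level would give. Among 79 members with a mean level of at least 500, NDUFA5 (SE 0.45, mean level 4075) and NDUFC2 (SE 0.42, mean level 913) stood apart from the rest, whose SE lay between 0.13 and 0.22 in the authors' deposited table. Of the other respiratory genes, CYCS, GABPA, LYRM7 and COX11 had an SE between 0.41 and 0.45 in the authors' deposited table. Over all 9169 tested genes of that level, 214 (2.33%) had an SE over 0.4, and 0 of them passed the authors' DESeq2-type test. The interval of NDUFA5 ran from -1.14 to 0.62 around -0.26, so neither a 2-fold lower nor a 1.5-fold higher level lies outside it. Reads may also be shared with copies elsewhere in the genome: 43 of the 88 members have at least 1 named pseudogene in GENCODE v29, with 17 for COX6C, 12 for NDUFA5 and 0 for NDUFC2.

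**Figure D4:**
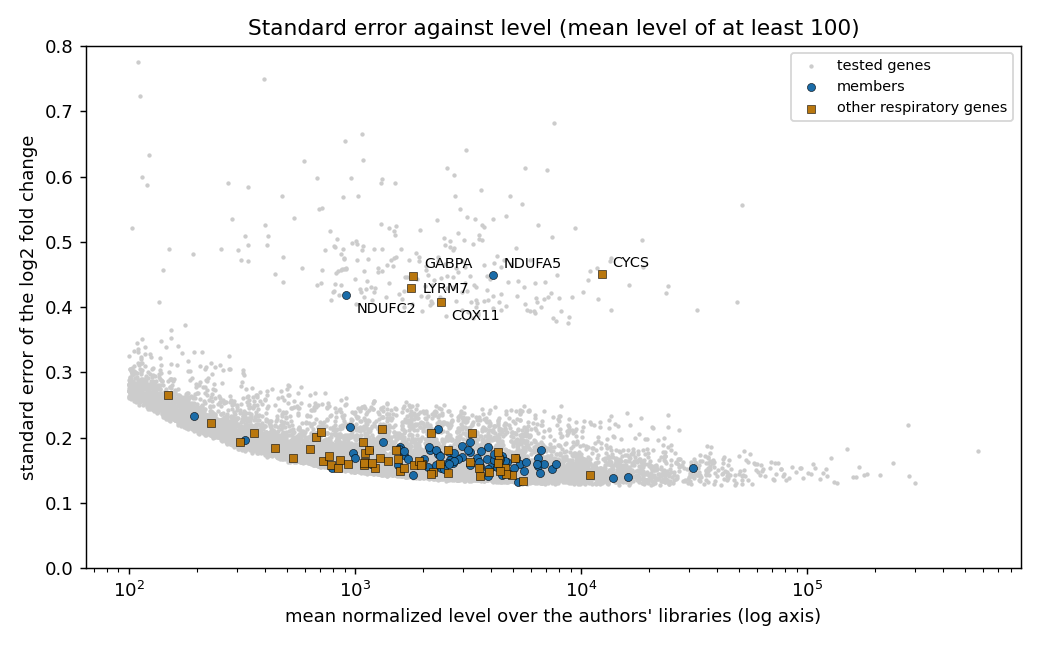
SE of the deposited log2 fold change (y axis) against mean normalized level (x axis, log scale) for tested genes whose mean level reached 100 in grey, members as circles and the other respiratory genes as squares. A separate cloud lies above an SE of about 0.4, and it holds NDUFA5, NDUFC2, CYCS, GABPA, LYRM7 and COX11.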

How the data were processed

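Poly(A)-selected RNA of U87 cells was sequenced in 4 libraries, 2 with YZ129 and 2 with DMSO, with groups taken from sample titles. Separate cultures for the libraries within a group are not mentioned by the labels, so p-values may measure technical spread alone. Listed in the submitters' processing notes are hg19 and Cuffdiff, Cufflinks 2.2.1 and TopHat2 2.0.12, with no step given for each. Only 1 table of the authors' own comparison was used; per the file headers it has the columns DESeq2 writes. It gives a mean level (a normalized signal deposited by the authors), a log2 fold change and its SE deposited by the authors on the log2 scale, a Wald score deposited by the authors, and p-values deposited by the authors.

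The deposited score equalled log2 fold change over SE, and the adjusted p matched Benjamini-Hochberg values computed over the 14812 tested genes; the other 4937 rows, with a mean level of up to 9.43, were not tested. An adjusted p under 0.05 was the call. The 525 genes with the lowest mean levels were read as holding 2 reads. From recurring low values 8 fixed steps were derived, and all 525 levels were sums of 2 steps. The steps come from the same genes, so the 8 libraries in the mean are inferred from this pattern. Total read counts per library are unknown here. Intervals are 95% normal intervals from the deposited SE. No new test per gene was made, except adjusted p-values recomputed after centring. Genes named are every member that passed, the lowest and highest of each complex, isoform pairs, core subunits of complex I and every pathway gene that passed; others are named as examples. Of the 61 pathway genes, 4 were found under an older symbol. The members and lists were chosen with earlier results of these data known. Python 3.11, numpy 2.4.6, pandas 2.3.3 and scipy 1.17.1 were used. Some genes are not reported by name here.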

Additional observations from a re-analysis of the deposited data

How the results depend on the processing

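No paired analysis was possible because the table holds no values per library; for the same reason no library could be left out in turn. At an adjusted p under 0.01, and with a minimum log2 change of 1, the members called lower were 0 in all and 0 in complex III. At an unadjusted p under 0.05 the members called lower were 9 in all, 2 in complex I, 1 in complex IV and 5 in complex V. Those called higher were 1 in all and 1 in complex I. Of all tested genes 14.5% were lower and 10.5% higher at that p. Relative to the median of genes whose mean level reached 1000, chosen after seeing the data, the members called lower were 0 in all and 0 in complex III. Those called higher were 1 in all and 1 in complex I, namely NDUFAF4. The shares of all tested genes called at an adjusted p under 0.01, at that minimum change and on this scale were not computed. The other 141 values of counts, medians and numbers below 0 kept their direction and stayed within 1.5 times the count or within 1 median SE of the median. The median over all members ranged from -0.22 with subunits only to -0.09 on the scale of those well-expressed genes. On that scale ATP5I turned to 0.031, NDUFA4 to 0.0012 and NDUFA4L2 to 0.042, none of which had passed, and the cause is the subtraction of -0.11. UQCRC1 and SELRC1 missed an adjusted p of 0.01 (0.011 and 0.017), and TFB1M missed the threshold under each of its 4 alternatives, with adjusted p from 0.043, set against 0.01, to 0.16. The other calls among the 29 genes chosen by the rule for named genes were unchanged except for NDUFAF4 (adjusted p 0.034) and UQCRC1 (0.063) on the scale of well-expressed genes. SUCLG2 is not among the 29 and was not recomputed, and its adjusted p of 0.020 is above 0.01.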

Other observations

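The 6 rows that carry a prefix of the respiratory genes and were left out by the symbol rule held 3 pseudogenes and 3 names with a hyphen. NDUFB2-AS1, antisense to NDUFB2, was the only tested one, at 0.26 ± 0.26 and a mean level of 111 in the authors' deposited table; no source used here says whether reads were counted by strand, so reads of the pair cannot be told apart. The readthrough rows NDUFC2-KCTD14 and ATP5J2-PTCD1 had mean levels of 1.93 and 7.32, and of the pseudogenes ATP5EP2 had the lowest at 1.71 and UQCRBP1 the highest at 8.72, in the authors' deposited table.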
